A study of Mus musculus with 10 samples.

Results

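The troponin isoform genes *Tnnt1*, *Tnnt2*, *Tnnt3*, *Tnni1*, *Tnni2*, *Tnnc1* and *Tnnc2* were followed in gastrocnemius RNA of 10 male mice. They were chosen by name, through the Ensembl identifiers that carry these symbols in the GRCm38 annotation, and they are 7 of the 49315 genes counted. All 7 passed the filter on low counts, which left 14714 genes to be tested. The mice were C57BL6J with an *Ahr* gene whose exon 2 is flanked by loxP sites. The 5 AHRfl mice carried this AHR-floxed gene and lacked Cre. The 5 AHRmko mice also carried the HSA-MCM transgene, in which the human ACTA1 promoter drives the tamoxifen-activated recombinase MerCreMer in skeletal muscle fibres. Every mouse of both genotypes had breathed cigarette smoke for 16 weeks, on 5 days per week in 2 sessions of 1 h per day, at 220 ± 80 mg/m3. Muscle was taken in the days after the last session; the labels give no interval, and the study states it as a range in its text and as a single time in a legend. Smoke began 4 weeks after tamoxifen according to the labels, and after a shorter interval according to the main text of the study, which gives the timing for both genotypes together. The labels give no age. Air-exposed mice were not analysed here, so the comparison is between genotypes under smoke. AHR loss and the presence of MerCreMer cannot be told apart in it, since no AHRfl mouse carried the transgene.

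Troponin is the calcium switch of the thin filament. Troponin C (TnC) binds calcium, troponin I (TnI) holds the filament off until calcium arrives, and troponin T (TnT) anchors both to tropomyosin. Slow-twitch fibres use the products of *Tnnt1*, *Tnni1* and *Tnnc1*, fast-twitch fibres those of *Tnnt3*, *Tnni2* and *Tnnc2*, and the heart uses *Tnnt2*, *Tnni3* and the slow *Tnnc1*. *Tnnt2* and *Tnni1* are also expressed in developing skeletal muscle.

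Most of the genes lie in neighbouring pairs of a TnI and a TnT gene. On chromosome 1 of GRCm38, *Tnni1* (chr1:135779434-135810989) and *Tnnt2* (chr1:135836354-135852260) are both on the plus strand, 25364 nt apart with *Lad1* between them. On chromosome 7, *Tnni2* (chr7:142441808-142444410) and *Tnnt3* (chr7:142498836-142516009), also on the plus strand, are 54425 nt apart with *Lsp1* between them. *Tnnt1* (chr7:4504570-4516382) and the cardiac *Tnni3* (chr7:4518305-4524229) share the minus strand of that chromosome, 1922 nt apart. The TnC genes stand alone, *Tnnc1* on the plus strand at chr14:31208312-31211729 and *Tnnc2* on the minus strand at chr2:164777161-164779967. Exons of *Tnnc2* share 592 of their 800 nt with exons of *Ube2c* on the opposite strand. Counting used strand only if the libraries were stranded, per the study's methods, and whether they were is not given in the sources used here, so reads of these 2 genes may not be separated and the level of *Tnnc2* per length is uncertain.

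The slow genes moved together across mice, and the 250 bases before their RefSeq start sites are shown for that reason, with the same window of *Tnnt2*, the neighbour of *Tnni1*. Sequences are from RefSeq (GRCm38.p6), 5′ to 3′ on the gene's strand. The copy used here held 5 of the 7 genes and lacked *Tnnt3* and *Tnni2*. Capitals mark the motifs searched on both strands, which were the E-box CANNTG bound by myogenic bHLH factors, the MCAT motif CATTCC bound by TEAD factors, TATAAA, and the MEF2 and CArG motifs.
Tnnt1, chr7:4515976-4516225, minus strand: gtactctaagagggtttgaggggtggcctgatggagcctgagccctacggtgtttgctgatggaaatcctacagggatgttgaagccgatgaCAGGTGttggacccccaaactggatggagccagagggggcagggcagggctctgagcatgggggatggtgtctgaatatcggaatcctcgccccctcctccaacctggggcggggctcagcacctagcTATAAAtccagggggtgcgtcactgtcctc
Tnni1, chr1:135799171-135799420, plus strand: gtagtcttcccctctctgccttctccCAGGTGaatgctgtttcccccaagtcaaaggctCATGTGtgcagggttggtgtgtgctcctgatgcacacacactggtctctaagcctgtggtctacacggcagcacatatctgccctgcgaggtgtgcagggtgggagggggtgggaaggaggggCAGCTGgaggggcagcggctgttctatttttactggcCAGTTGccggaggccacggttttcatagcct
Tnnc1, chr14:31208062-31208311, plus strand: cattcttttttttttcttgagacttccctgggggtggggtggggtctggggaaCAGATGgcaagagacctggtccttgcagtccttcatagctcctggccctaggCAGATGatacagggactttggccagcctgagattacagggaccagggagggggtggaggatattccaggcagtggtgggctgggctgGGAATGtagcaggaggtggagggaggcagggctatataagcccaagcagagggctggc
Tnnt2, chr1:135836084-135836333, plus strand: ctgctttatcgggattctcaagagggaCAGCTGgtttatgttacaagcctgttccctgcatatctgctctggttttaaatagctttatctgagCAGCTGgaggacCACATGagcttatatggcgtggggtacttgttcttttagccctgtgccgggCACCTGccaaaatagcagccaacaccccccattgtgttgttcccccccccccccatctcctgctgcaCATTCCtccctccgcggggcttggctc
Every one of these windows held an E-box, as did 66% of 27025 promoters of this length. An MCAT motif was present 27 nt before the start of *Tnnt2* and, as its reverse complement, 58 nt before that of *Tnnc1*, beside 12.6% of all promoters. *Tnnt1* had TATAAA 30 nt before its start, beside 13% of all promoters. No MEF2 or CArG match was found in these windows, beside 3.01% and 1.4% of all promoters. Of the *Tnnt1* window 29 bases, and of the *Tnni1* window 19, fall in annotated exons of the same gene. Both windows lie inside the annotated span of their gene. RefSeq lists a second start for *Tnnt2*, whose window held 1 E-box and no MCAT motif, and a second start for *Tnni1*, whose window held 2 E-boxes; the window of the first listed start is printed. A match only describes the letters of the window.

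Total counts were between 30393035 and 37954388 per mouse. The targeted gene *Ahr* had 110, 71, 58, 68 and 43 counts in AHRfl mice 11, 12, 13, 15 and 33, and 63, 80, 54, 62 and 31 in AHRmko mice 8, 9, 19, 22 and 34. The genotypes overlapped, but the count sums all exons of *Ahr* and so says little on the loss of exon 2. *Esr1*, part of which is in MerCreMer, had between 544 and 658 counts in AHRfl and between 9770 and 24975 in AHRmko mice, so no library went against its genotype label; this check was chosen after its values were seen. The 4 Y-linked genes checked had at least 282 counts in all 10 libraries, although 5 of them (3 AHRfl, 2 AHRmko) also held more than 10 *Xist* counts. Of 6 cardiac markers only *Myh6* passed the filter, *Tnni3* had between 2 and 14 counts, *Mybpc3* between 0 and 4 and *Myl7* 0. *Myh6* itself ran from 2 to 179 counts and was highest in AHRmko mouse 8. The skeletal muscle genes *Acta1*, *Ckm* and *Myh4* had at least 705251, 706583 and 1339728 counts in every library.

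The 7 genes together took between 4.08% and 5.35% of all counts, nearly all of it from the 3 fast genes, which took between 4.03% and 5.35%. *Tnnt3*, the fast troponin T, ranked 4 of 14681 genes by level per length, *Tnnc2*, the fast troponin C, ranked 6, and *Tnni2*, the fast troponin I, ranked 15. Their levels were 16165 ± 1956 CPM per kb of exon for *Tnnt3*, 12694 ± 1982 for *Tnnc2* and 6130 ± 827 for *Tnni2* (SD, n = 10), where CPM are counts scaled to the normalized library size. Of the slow genes, *Tnnc1* had 40.2 ± 44.9, *Tnnt1* 38.8 ± 39.9 and *Tnni1* 9.03 ± 9.83 CPM per kb (SD, n = 10). *Tnnt2* came last by mean at 0.451 ± 0.145. In single mice *Tnni1* lay below *Tnnt2* in AHRfl mouse 12 (0.336 against 0.562) and AHRmko mouse 9 (0.437 against 0.479). The spread of the slow genes was as large as their means. The order of *Tnnc1* and *Tnnt1* changed between mice, with 1.60 against 7.18 in AHRfl mouse 13 and 104 against 91.8 in AHRfl mouse 15. Their means also changed order with the longest transcript as the length, at 58.0 for *Tnnc1* and 80.7 for *Tnnt1*, and their difference was not tested. The 3 fast genes kept the order *Tnnt3*, *Tnnc2*, *Tnni2* in each of the 10 mice, with the place of *Tnnc2* open to the uncertainty in its length.

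The slow genes ranged widely from mouse to mouse within each genotype. *Tnnt1*, slow troponin T, stood at 14.6, 3.46, 15.8, 202 and 127 CPM in AHRfl mice 11, 12, 13, 15 and 33. In AHRmko mice 8, 9, 19, 22 and 34 it stood at 223, 11.8, 58.0, 176 and 21.6 CPM. Both genotypes held low and high mice, with AHRfl mouse 12 the lowest and AHRmko mouse 8 the highest, 64.4-fold apart. *Tnni1*, slow troponin I, was at 4.01, 1.21, 2.31, 82.9 and 50.2 CPM in the same AHRfl mice. In the AHRmko mice it was at 84.5, 1.57, 21.3, 69.1 and 8.10 CPM. The same 2 mice marked the ends of its range, 69.8-fold apart. *Tnnc1*, the troponin C of slow fibres and heart, had 4.29, 0.865, 1.66, 108 and 61.9 CPM in AHRfl mice. It had 109, 2.01, 25.6, 94.6 and 10.3 CPM in AHRmko mice. Its range was 126-fold, from 30 counts in AHRfl mouse 12 to 4137 in AHRmko mouse 8, and the genotypes again overlapped across nearly the whole of it.

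**Figure D1:**
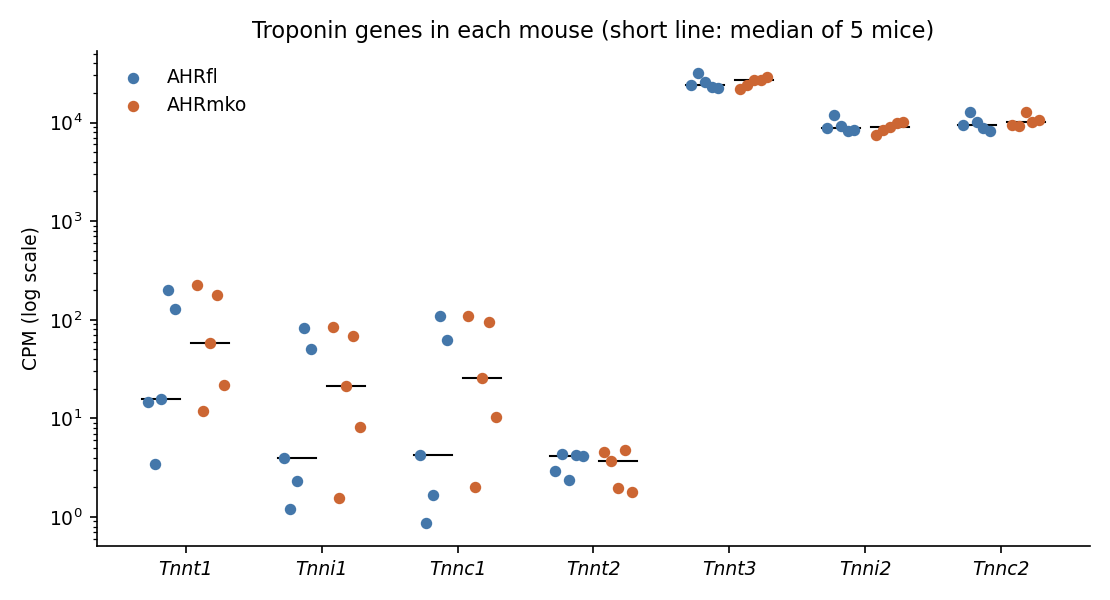
CPM of each troponin gene on a log axis, one point per mouse, AHRfl in blue and AHRmko in orange, with a short line at the median of 5 mice. The slow genes *Tnnt1*, *Tnni1* and *Tnnc1* spread over 64.4- to 126-fold across the 10 mice (58.5- to 125-fold within AHRfl, 18.9- to 54.1-fold within AHRmko), *Tnnt2* over 2.67-fold and the fast genes over at most 1.59-fold.

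The fast genes were steady by comparison. *Tnnt3* was at 24221, 31619, 25659, 22995 and 22534 CPM in AHRfl mice 11, 12, 13, 15 and 33, and at 21722, 24208, 26911, 27116 and 28913 CPM in AHRmko mice 8, 9, 19, 22 and 34. *Tnni2* was at 8878, 11918, 9268, 8233 and 8363 CPM in AHRfl and at 7529, 8468, 9115, 9813 and 10179 CPM in AHRmko mice. Mouse 12, the lowest in every slow gene, was the highest in both, and mouse 8, the highest in every slow gene, was the lowest in both. *Tnnc2* was at 9337, 12782, 10038, 8775 and 8118 CPM in AHRfl and at 9536, 9326, 12929, 10102 and 10611 CPM in AHRmko mice. Its highest mouse was AHRmko mouse 19, just above AHRfl mouse 12. From the lowest to the highest mouse, *Tnnt3* differed by 1.46-fold, *Tnni2* by 1.58-fold and *Tnnc2* by 1.59-fold. The ratio of *Tnnt3* to *Tnni2* counts held between 2.65 and 2.95 in all mice, whereas that of *Tnnc2* to *Tnni2* counts ran from 0.971 to 1.42.

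*Tnnt2*, the cardiac and embryonic troponin T, was at 2.96, 4.35, 2.40, 4.29 and 4.17 CPM in AHRfl mice 11, 12, 13, 15 and 33. It was at 4.52, 3.72, 1.97, 4.79 and 1.79 CPM in AHRmko mice 8, 9, 19, 22 and 34. These are between 60 and 182 counts, and the order of mice was another one, with AHRfl mouse 12 among the higher and AHRmko mice 19 and 34 the lowest. *Tnnt2* and its neighbour *Tnni1* were not correlated past the threshold (Pearson r = 0.33, permutation p = 0.346; Spearman rho = 0.39, permutation p = 0.265).

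No troponin gene differed between AHRmko and AHRfl muscle by more than the spread of the mice. Of the 7 members, 0 passed an adjusted p of 0.05 in edgeR's quasi-likelihood test, beside 0.0068% of the 14714 genes tested. That share is 1 gene, *Esr1*, part of which is in MerCreMer. At an unadjusted p under 0.05 the count of members was also 0, beside 6.61% of all genes, and DESeq2 and limma-voom called 0 of the 7 too. No member had genotypes that did not overlap, beside 1.4% of all genes. The median log2 fold change of all genes was 0.0056.

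Among the slow genes, the log2 fold change (AHRmko minus AHRfl) was 0.43 for *Tnnt1* (SE 1.21, 95% interval -2.33 to 3.20, adjusted p = 0.973 from edgeR). That of *Tnni1* was 0.40 (SE 1.35, 95% interval -2.69 to 3.48, adjusted p = 0.979 from edgeR). That of *Tnnc1* was 0.45 (SE 1.43, 95% interval -2.84 to 3.73, adjusted p = 0.978 from edgeR). Such intervals leave room for changes of several fold in either direction. These values compare mean counts, in which the high mice weigh most, and the differences between mean log2 CPM were larger, at 0.96, 1.01 and 1.39 (two-sided exact permutation tests, p = 0.476, 0.524 and 0.437). In means, *Tnnt1* was at 72.7 ± 88.4 CPM in AHRfl and 98.1 ± 95.7 CPM in AHRmko muscle (SD, n = 5 each).

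For the fast genes the same test was far tighter. The log2 fold change was 0.02 for *Tnnt3* (95% interval -0.22 to 0.26), -0.05 for *Tnni2* (-0.30 to 0.20) and 0.10 for *Tnnc2* (-0.18 to 0.38), with edgeR's adjusted p of 0.988, 0.965 and 0.927. *Tnnt3* averaged 25405 ± 3679 CPM in AHRfl and 25774 ± 2820 CPM in AHRmko mice (SD, n = 5 each). *Tnnt2* had a log2 fold change of -0.11 (95% interval -0.73 to 0.51, edgeR's adjusted p = 0.970). The exact permutation test of log2 CPM gave p between 0.444 and 0.825 for these 4 genes (two-sided; the smallest p that 5 against 5 mice can give is 0.00794).

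**Figure D2:**
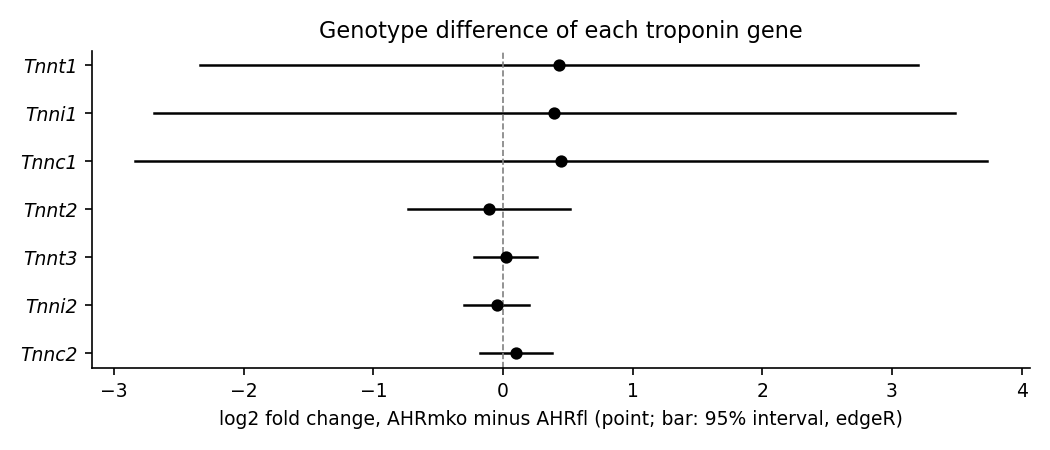
Log2 fold change of each troponin gene, AHRmko minus AHRfl, as a point with its 95% interval from edgeR on a linear axis. Every interval covers 0, and those of the slow genes reach from below -2.3 to above 3.1 while those of the fast genes stay within 0.4 of 0.

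The spread among mice differed between the isoforms. Within genotypes the SD of log2 CPM was 2.15 for *Tnnt1*, 2.54 for *Tnni1* and 2.76 for *Tnnc1*, and only 5, 3 and 1 of the 14714 genes tested varied more than each of them. *Tnnt2* varied with an SD of 0.54, above 89.5% of genes. *Tnnt3*, *Tnni2* and *Tnnc2* had SDs of 0.18, 0.20 and 0.22, near the middle of all genes.

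Each subunit's slow isoform was set against its fast isoform in the same mouse, which needs no scaling of the libraries. In AHRfl mouse 12 there were 9137 *Tnnt3* reads for each *Tnnt1* read, 9839 *Tnni2* reads for each *Tnni1* read and 14774 *Tnnc2* reads for each *Tnnc1* read. In AHRmko mouse 8 these numbers were 97.5, 89.1 and 87.8. As a share of the reads of both isoforms, *Tnnt1* made 0.0109% in AHRfl mouse 12 (Wilson 95% interval 0.00915% to 0.0131%) and 1.02% in AHRmko mouse 8 (0.994% to 1.04%), so counting error was small beside the range. Such intervals cover counting error only, since reads carry no molecular identifiers.

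With 0.5 added to each count, the log2 ratio of slow to fast counts averaged -9.76 ± 2.60 for TnT in AHRfl and -8.82 ± 1.91 in AHRmko mice (SD, n = 5 each). For TnI the means were -10.1 ± 2.91 and -9.01 ± 2.40, and for TnC -10.2 ± 3.33 and -8.87 ± 2.38. AHRmko exceeded AHRfl by 0.94, 1.06 and 1.30 on this scale, all smaller than the SD within either genotype. The two-sided exact permutation tests gave p = 0.508, 0.540 and 0.484 (adjusted over the 3 subunits, p = 0.540 for each).

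At the exon lengths taken, the 3 subunits did not give the same slow share in a mouse. Per kb of exon, *Tnnt1* was between 0.00786% and 0.731% of *Tnnt1* plus *Tnnt3*, and *Tnni1* between 0.00423% and 0.465% of *Tnni1* plus *Tnni2*. The TnT share was above the TnI share in 10 of 10 mice, by 0.0973 ± 0.0950 percentage points (SD; two-sided exact sign-flip permutation test, p = 0.00195, the smallest that 10 mice can give; adjusted over 3 pairs, p = 0.00293). With the longest transcript as the length the difference was 0.204 points, again in 10 of 10 mice. This order depends on dividing by length, since in reads alone the TnT share was above the TnI share in 4 of 10 mice. *Tnnc1* was between 0.00520% and 0.941% of *Tnnc1* plus *Tnnc2*, above the TnI share in 10 of 10 mice by 0.181 ± 0.212 points (exact sign-flip p = 0.00195, adjusted p = 0.00293). That order reversed in 10 of 10 mice once the 592 nt that *Tnnc2* shares with *Ube2c* were taken out of its length, a choice made after the data were seen, so the place of TnC among the subunits is not settled by these counts. With the full length TnT and TnC did not differ past the threshold (exact sign-flip test, adjusted p = 0.104), and TnT was higher in 5 of 10 mice. With the shortened length TnT was higher in 10 of 10 mice. In reads alone TnT was above TnC in 5 of 10 mice and TnI above TnC in 3 of 10 mice. The tests of these shares therefore hold only for the lengths taken.

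**Figure D3:**
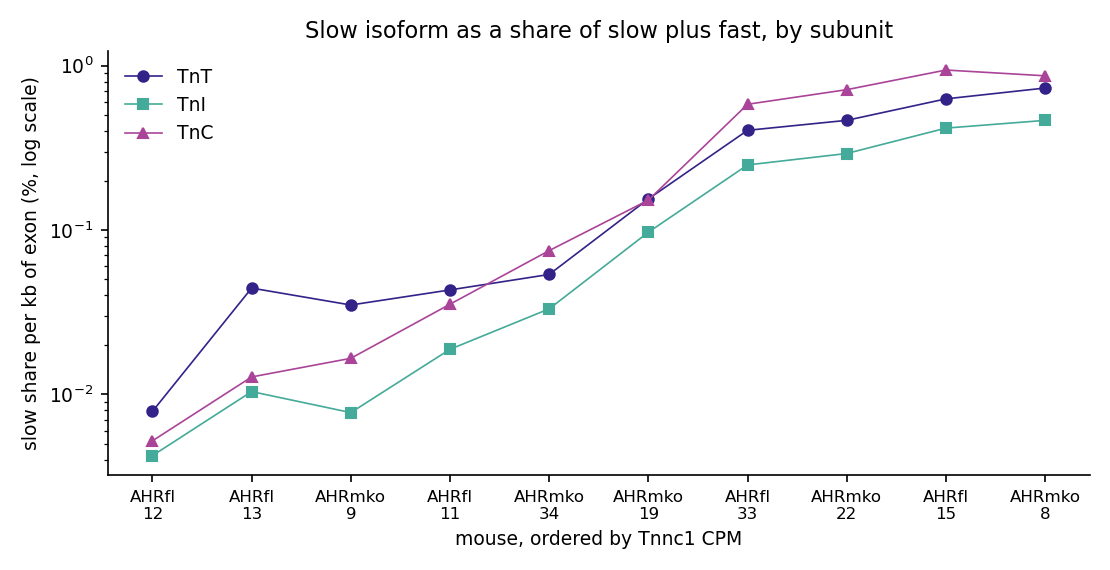
Slow isoform as a percentage of slow plus fast, per kb of exon and on a log axis, for TnT, TnI and TnC in each mouse, ordered by *Tnnc1* CPM. All 3 lines rise from the left to the right end with small local reversals, the TnI line lies below the TnT line throughout at these lengths, and AHRfl and AHRmko mice are mixed along the axis; the height of the TnC line depends on the length taken for *Tnnc2*.

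Across the 10 mice the slow genes kept nearly 1 order. *Tnnt1* and *Tnni1* correlated at r = 0.978 (rho = 0.988), *Tnnt1* and *Tnnc1* at r = 0.978 (rho = 0.964), and *Tnni1* and *Tnnc1* at r = 0.996 (rho = 0.988) in log2 CPM. Each Pearson r had a permutation p of 1e-05, the smallest that 100000 resamples can give, and an adjusted p of 3.33e-05 over the 10 relations computed. For rho the permutation p was 1e-05, 6e-05 and 1e-05, adjusted to at most 0.00015. Without the 2 mice farthest from the median the r were 0.982, 0.972 and 0.997, and with genotype means subtracted they were 0.977, 0.977 and 0.997. In 7 of 10 mice all 3 genes gave the mouse the same rank.

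The other mice, AHRfl mice 11 and 13 and AHRmko mouse 9, moved by 1 or 2 ranks between genes. The proportion of *Tnnt1* to the other slow genes stood apart in AHRfl mouse 13 and AHRmko mouse 9. In these mice there were 6.84 and 7.48 *Tnnt1* reads for each *Tnni1* read, beside 2.44 to 3.63 in the other 8 mice. Against *Tnnc1* the same mice had 9.51 and 5.86 *Tnnt1* reads, beside 1.86 to 4.0. One mouse was of each genotype, and both were low in all 3 slow genes.

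Of the fast genes, *Tnnt3* and *Tnni2* correlated at r = 0.97 (permutation p = 2e-05, adjusted p = 5e-05; rho = 0.98, permutation p = 4e-05, adjusted p = 0.000133), and r was 0.93 without the 2 farthest mice. *Tnnt3* and *Tnnc2* correlated at r = 0.81 (permutation p = 0.0044, adjusted p = 0.0088; rho = 0.81, permutation p = 0.00726). *Tnni2* and *Tnnc2* correlated at r = 0.69 (permutation p = 0.0266, adjusted p = 0.0444; rho = 0.75, permutation p = 0.0171). Without the 2 farthest mice the r of the relations with *Tnnc2* were 0.73 and 0.59, and neither passed the adjusted threshold. The slow and the fast gene of a subunit had a negative correlation that missed the threshold, with r = -0.63 for TnT, -0.54 for TnI and -0.39 for TnC, and adjusted permutation p of 0.0751, 0.132 and 0.300. Their rho were -0.53, -0.60 and -0.31 (permutation p = 0.121, 0.0726 and 0.385), and r shrank to -0.22, -0.50 and -0.12 without the 2 farthest mice. The relation for TnT passed the threshold with genotype means subtracted (r = -0.67, adjusted permutation p = 0.0492) and without AHRmko mouse 9 or AHRmko mouse 22, and that for TnI without AHRmko mouse 9.

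Of 12125 genes with a mean of at least 1 CPM, the one most like the mean of the slow troponins over the 10 mice was *Myh7*, the slow myosin heavy chain (r = 0.997). It ran from 115 counts in AHRfl mouse 12 to 24041 in AHRmko mouse 8, a 190-fold range in CPM. *Tpm3*, slow tropomyosin (r = 0.974), and *Atp2a2*, the slow calcium pump (r = 0.962), were also among the 5 most alike. Most like the fast mean were *Dnase1l1*, *Tpm1*, *Pvalb*, the calcium buffer parvalbumin, *Sar1b* and *Oscp1*, with r between 0.966 and 0.976. Most like *Tnnt2* were *Hsd17b11*, *Apod*, *Ccdc3*, *Mfsd4b3* and *Tnc*, with r between 0.906 and 0.949. These r are descriptions over 10 mice, and all values within a library share its scaling.

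**Figure D4:**
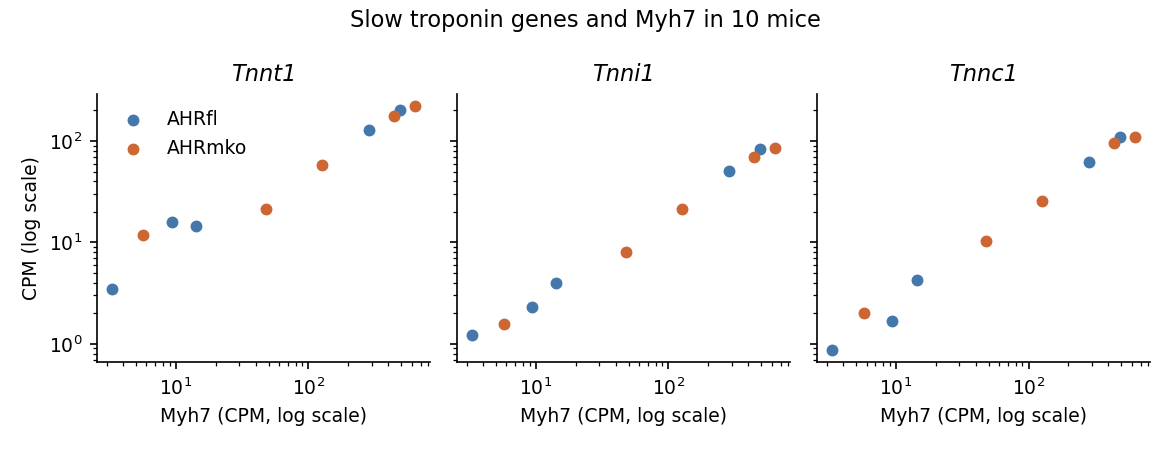
CPM of *Tnnt1*, *Tnni1* and *Tnnc1* against that of *Myh7* in the same mouse, with both axes on a log scale, AHRfl in blue and AHRmko in orange. The 10 mice form 1 rising line in which the genotypes mix, and *Tnnt1* lies higher against *Myh7* in the 4 lowest mice.

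The proportion of each slow troponin to *Myh7* varied far less than its level. There were between 0.134 and 0.365 *Tnni1* reads and between 0.172 and 0.352 *Tnnc1* reads for each *Myh7* read, over the 190-fold range of *Myh7*. *Tnnt1* had 1.02, 1.04, 1.69 and 2.07 reads for each *Myh7* read in AHRfl mice 11, 12 and 13 and AHRmko mouse 9, and 0.353 to 0.458 in the other 6 mice. *Tnni1* was also higher against *Myh7* in those 4 mice, at 0.280, 0.365, 0.248 and 0.276, beside 0.134 to 0.176 in the other 6. The proportion of *Tnnc1* to *Myh7* overlapped between these 2 sets of mice. In bulk muscle RNA, fewer slow fibres and less slow-fibre RNA per fibre cannot be told apart. The methods of the study also state that red portions of gastrocnemius were dissected for other assays, and that remaining portions were frozen or used for mitochondria; the RNA methods name only gastrocnemius muscle, and the part of this in the range was not tested.

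Of the slow fibre genes listed with the troponins, 10 of 10 were tested, 0 were called in edgeR in either direction and 0 had an unadjusted p under 0.05, with a median log2 fold change of 0.26 beside 0.0056 for all genes. Of these, 8 of 10 correlated with the slow troponin mean at r over 0.8, beside 2.22% of the 12125 genes. The lowest was *Csrp3*, a muscle LIM protein, at r = 0.69. Of 10 fast fibre genes 0 were called and 0 had an unadjusted p under 0.05, with a median of 0.08. *Atp2a1*, the fast calcium pump, came nearest at 0.21 (SE 0.10, edgeR's adjusted p = 0.755). The myosin *Myh2* of fast oxidative fibres ranged 14.2-fold among mice, *Myh1* 3.84-fold and *Myh4*, the myosin of the fastest fibres, 1.61-fold, with log2 fold changes between genotypes of -0.12, 0.10 and 0.07.

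Of 10 thin filament genes 0 were called, and the median log2 fold change was 0.07. The 1 with an unadjusted p under 0.05 was *Actc1*, cardiac actin, at 46.0 CPM in AHRfl and 97.7 CPM in AHRmko mice on average (log2 fold change 1.09, SE 0.45, edgeR's adjusted p = 0.724). *Tmod1*, which caps the pointed end of the filament, was at 0.16 (SE 0.08, edgeR's adjusted p = 0.762). Of 7 embryonic or denervated muscle genes tested 0 were called and 2 had an unadjusted p under 0.05, *Chrna1*, the acetylcholine receptor alpha subunit (log2 fold change 0.22, edgeR's adjusted p = 0.665), and *Myl4*, the embryonic light chain (-0.52, adjusted p = 0.724). Of 12 regulators of fibre-type genes 0 were called, and *Nfatc1*, a calcineurin-responsive factor, had the 1 unadjusted p under 0.05 (-0.27, edgeR's adjusted p = 0.718). Each of these counts rests on 1 or 2 genes and is to be read beside the 6.61% of all genes.

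Across the 10 mice, each marker of other cell types tested except cardiac *Myh6* ranged by at most 9.93-fold, less than any slow troponin gene. *Myh6*, with 2 counts in its lowest library, ranged 83.3-fold, more than *Tnnt1* and *Tnni1*, and ran with the slow troponin mean (r = 0.87). Between genotypes the median log2 fold changes of these marker lists ran from -0.18 for Schwann cell to 0.69 for red blood cell markers. Summed over the 3 endothelial markers the level was between 91.6 and 148 CPM in AHRfl and between 106 and 187 CPM in AHRmko mice, and across the 10 mice its log2 ran against the mean of the fast troponins (r = -0.90, a description within shared library scaling). The 3 fibro-adipogenic markers summed to between 196 and 354 CPM and between 200 and 392 CPM, and this sum ran with the mean of the slow troponins (r = 0.68, likewise a description over 10 mice). Of these markers *Dcn* and *Pdgfra* also ran with *Tnnt2* (r = 0.81 and 0.74). The 4 smooth muscle markers summed to between 73.1 and 140 CPM and between 73.1 and 152 CPM. The 3 adipocyte markers ran from 2.09 to 14.3 CPM and from 2.21 to 16.5 CPM, and the 3 Schwann cell markers from 46.1 to 80.4 CPM and from 25.7 to 71.6 CPM. Red blood cell markers summed to between 85.8 and 265 CPM and between 121 and 423 CPM, immune markers to between 3.75 and 6.34 CPM and between 3.77 and 8.45 CPM, and the 2 satellite cell markers tested to between 1.97 and 2.97 CPM and between 2.47 and 3.39 CPM. Of the genes of these lists 0 were called and 0 had an unadjusted p under 0.05, and their part in the troponin levels was not tested.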

How the data were processed

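Poly(A)-selected reads were trimmed (Trimmomatic 0.36) and aligned to GRCm38 (STAR 2.5.2b) by the authors, per the submitters' processing notes, and featureCounts assigned unique reads to exons. They deposited raw counts per Ensembl gene, 1 column per mouse, not normalized or pooled. The Ensembl release is not given in the sources used here. Symbols, exons and lengths were taken from GENCODE M21, which held 48970 of the 49315 identifiers.

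The genotype test used edgeR 4.0.16 under R 4.3.3 (filterByExpr at 10 counts and 15 in total, TMM, robust quasi-likelihood test, Benjamini-Hochberg adjustment over all genes tested). Log2 CPM used a prior count of 2, and slow-to-fast ratios an offset of 0.5 counts. Lengths are the union of exons. Exact permutations of genotype (252 assignments) and sign flips over 10 mice were run in SciPy 1.17.1 and NumPy 2.4.6. Alternatives included DESeq2 1.42.0, limma-voom (limma 3.58.1) and 1 surrogate variable (sva 3.50.0).

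The members and gene lists were chosen with earlier results of these data known. Named beside the members are, for each list, up to 3 genes with the smallest p, the myosins *Myh7*, *Myh2*, *Myh1* and *Myh4*, label checks, and the 5 genes most like the slow mean, the fast mean and *Tnnt2*, of which 2 are not reported here. Each mouse was 1 replicate. With 5 mice per genotype, and 30 counts for *Tnnc1* in its lowest library, precision was set by the spread of mice. No animal numbers repeat between genotypes, so no pairing was used.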

Additional observations from a re-analysis of the deposited data

Results flagged for a closer look

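The log2 ratio of *Tnnt1* to *Tnni1* counts in AHRmko mouse 9 lay far from the other 4 AHRmko mice, with a gap to its nearest neighbour of 0.9383 of the whole range, where 0.71 is the limit of Dixon's test for 5 values. For *Tnnt1* to *Tnnc1* in the same mouse the gap was 0.8301 of the range. AHRmko mouse 9 had 434 *Tnnt1*, 58 *Tnni1* and 74 *Tnnc1* counts. For *Tnnc2* to *Tnni2* in AHRfl mouse 33, the lowest of its genotype, the gap was 0.7316. A total of 32 groups of 5 values were checked, and chance alone takes about 1 in 20 such groups past this limit. The ratios between genes of like fibre type were added after the data were seen, and the cause of these gaps was not tested.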

How the results depend on the processing

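No member passed the adjusted threshold of 0.05 under any of the 23 other fits, or at 0.1. Over all genes the count of calls was 1, against 21 in DESeq2, 5 without the filter beyond 1 count, 6 without AHRmko replicate 34 and 2 with *Myh7* as a covariate, where 1 member had an unadjusted p under 0.05. The direction of small log2 fold changes turned. After adding a slow-fibre score to the model, *Tnnt1* was at -0.039 and *Tnni2* at 0.031, and with 1 surrogate variable *Tnni2* was at 0.024. With *Myh7* as a covariate, chosen after seeing the data, *Tnnt1* was at -0.074, *Tnni1* at -0.24, *Tnnc1* at -0.048 and *Tnni2* at 0.014. Another covariate added then was whether a library held more than 10 *Xist* counts. With it *Tnnt3* was at -0.0027 while *Tnnt1*, *Tnni1* and *Tnnc1* were at 1.49, 1.71 and 2.05. In limma-voom the latter were at 0.98, 1.07 and 1.46. Leaving out single mice, the values ran from -0.12 to 1.29 for *Tnnt1*, -0.27 to 0.047 for *Tnnt2*, -0.024 to 0.11 for *Tnnt3*, -0.17 to 1.36 for *Tnni1*, -0.096 to 0.055 for *Tnni2* and -0.094 to 1.498 for *Tnnc1*. *Tnnc2* stayed above 0 in all of its 23 alternatives. The ratio differences of TnT, TnI and TnC kept their direction, with adjusted p between 0.270 and 0.937, but were 0.090, 0.26 and 0.38 without AHRfl mouse 12 and 1.67, 1.92 and 2.25 without AHRfl mouse 15. Without the bases *Tnnc2* shares with *Ube2c*, added after seeing the data, the slow share of TnT minus TnC was 0.168 points and of TnI minus TnC 0.0704 points, both reversed by construction of the length (from -0.0836 and -0.181).

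Of the correlations, *Tnnt3* with *Tnnc2* missed the adjusted threshold with library size only (r = 0.68), without the 2 farthest mice (r = 0.73) and without AHRfl mouse 12, and ran from 0.71 to 0.89 with each mouse left out. *Tnni2* with *Tnnc2* missed it with library size only (r = 0.50), without the 2 farthest mice (r = 0.59) and without any one of AHRfl mice 11, 12, 13, 15 and 33 and AHRmko mice 9 and 34 (r from 0.50 to 0.86 over all mice left out). *Tnnt1* with *Tnnt3* passed it with genotype means subtracted (r = -0.67), without AHRmko mouse 9 (r = -0.71) and without AHRmko mouse 22 (r = -0.76), and *Tnni1* with *Tnni2* without AHRmko mouse 9 (r = -0.70). Over all mice left out these r ran from -0.76 to -0.39 and from -0.70 to -0.32, and both were weakest, and missed the threshold, without AHRfl mouse 12. The causes were not tested. No library went against the male label by its Y-linked genes, so none was left out for it.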
